A study of Mus musculus with 18 samples.

Results

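The genes Csf1, Csf2, Csf3, Il34 and Cx3cl1, which encode growth factors and a chemokine for myeloid cells, were followed in cultured normal fibroblasts (NFs) of the mouse mammary gland. They were taken by gene symbol, and all 5 of 5 were found among the 55486 genes of the count table and were abundant enough to be tested. RNA was measured by poly(A) RNA sequencing in 18 libraries. The cells came from the FVB/n strain, had been sorted without EpCAM, CD49f, CD45 and CD31, and were split by CD26, a surface peptidase encoded by Dpp4. CD26- NFs and CD26+ NFs were each kept for 7 days in control conditioned medium (n = 3 per cell type) or in conditioned medium (CM) of tumor cells (n = 6 per cell type). Tumor CM came from 6 cell lines grown out of end-stage WEPtn tumors, mouse tumors of the invasive lobular type in which mammary epithelium has lost Cdh1. Each line gave CM to 1 library of CD26- NFs and 1 library of CD26+ NFs. Fibroblasts of several female mice were pooled for a sort and expanded on collagen I in serum. The labels do not say whether libraries of a group came from separate cultures or animals, so p-values measure the spread between these libraries, which may be technical. In the CM groups this spread also includes differences among the 6 lines, and all groups share 1 estimate of it.

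CSF1 and IL34 are the ligands of CSF1R, the receptor that sustains monocytes and macrophages. CSF2 (GM-CSF) and CSF3 (G-CSF) drive the production and activation of granulocytes and macrophages, and their genes are classical targets of inflammatory signaling in stromal cells. CX3CL1 (fractalkine) is made as a membrane-bound chemokine, is cut from the cell surface by the proteases ADAM10 and ADAM17, and is read by CX3CR1 on monocytes and other leukocytes. Messenger RNAs of CSF2 and CSF3 are kept short-lived by AU-rich elements behind the stop codon, to which decay factors bind.

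The members differed in this sequence feature. Between the stop codon and the end of the longest such stretch in the GENCODE vM21 transcripts, the pentamer ATTTA occurred 9 times in 317 bases of Csf2 and 6 times in 669 bases of Csf3. It occurred 4 times in 2111 bases of Csf1 and once each in Il34 and Cx3cl1. At least 1 ATTTA was present in 65.2% of 21020 genes, 8.57% had as many as Csf2 and 16.9% had as many as Csf3. The nonamer TTATTTATT, present in 7.66% of genes, occurred 4 times in Csf2 and 1 time in Cx3cl1 and in none of the other members. The 30-base windows with the most ATTTA are shown for Csf2, Csf3 and, for contrast, Csf1, with the pentamers in capitals (transcribed strand, GRCm38, chr11:54247329-54247358, chr11:98702984-98703013 and chr3:107741109-107741138).
Csf2: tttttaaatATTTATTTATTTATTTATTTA
Csf3: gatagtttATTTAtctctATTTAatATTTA
Csf1: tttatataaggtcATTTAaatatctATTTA
The Csf2 window is a run of overlapping pentamers, 5 in all, against 3 in the Csf3 window and 2 in the Csf1 window.

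The identity of the fibroblasts and of possible other cells was checked with marker genes. All 7 fibroblast markers were detected in every group, and their sum was 11920 to 13820 CPM in CD26- control, 7439 to 17520 in CD26- CM, 40020 to 49890 in CD26+ control and 23890 to 40440 CPM in CD26+ CM libraries. That sum is mostly collagen, and single markers went other ways: in CD26+ NFs Col1a1 was at 26730 and 14690 CPM on average in control medium and tumor CM, against 390 and 3566 CPM for Dcn and 439 and 914 CPM for Pdgfra. Of the leukocyte markers, Ptprc, Adgre1, Itgam and Cd3e stayed at or below 3 counts in each library, whereas Cd68 had 10 to 48 and Lyz2 5 to 48 counts and Csf1r is described with the receptors. Epithelial markers, which the sort should remove, summed to 3639 to 3975 CPM in CD26- control libraries and 2291 to 3710 CPM in CD26- CM libraries, against 602 to 1071 and 549 to 1323 CPM in the CD26+ libraries. CPM is the count relative to the TMM-scaled library size. All 6 epithelial markers were above 3 counts in every group, and 81.4% of the variance of their mean lay between CD26- and CD26+ libraries. All 3 pericyte markers were detected in every group, and their sum was 144 to 161 CPM in CD26- control and 46.8 to 92.3 CPM in CD26- CM libraries, against 37.1 to 56.4 and 34.5 to 57.2 CPM in CD26+ control and CM libraries. Endothelial and adipocyte sums stayed at or below 8.77 and 15.7 CPM. Of 4 skeletal muscle markers, Myog (16 to 186 counts) and Myod1 (7 to 62 counts) were seen in CD26- CM libraries, against at most 4 counts elsewhere, and Ckm had 0 to 5 counts. Acta1 was present in all groups, at 63.0 CPM on average in CD26- control, 48.5 in CD26- CM, 15.1 in CD26+ control and 10.4 CPM in CD26+ CM libraries. The part of the fibroblast, pericyte, adipocyte, endothelial and muscle markers in the results was not tested. Dpp4 itself did not separate the control groups, with 0 to 2 counts in CD26- and 0 to 1 in CD26+ libraries, against 1 to 11 counts in CD26- CM and 8 to 104 counts in CD26+ CM libraries, ranges that overlapped. In bulk RNA, fewer cells of a type and less RNA per cell cannot be told apart.

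Tumor CM raised Csf1 and Csf3 in both cell types, raised Il34 in CD26+ NFs, and lowered Cx3cl1 in both. In CD26- NFs, 2 of 5 members rose and 1 fell at a false discovery rate (FDR, the Benjamini-Hochberg adjusted p of edgeR's quasi-likelihood test over 14273 genes) under 0.05, where 7.88% of tested genes rose and 7.28% fell. In CD26+ NFs 3 rose and 1 fell, against 15.2% and 13.4% of tested genes. The median log2 fold change of the members was 0.40 in CD26- NFs and 0.86 in CD26+ NFs, against 0.0052 and -0.0040 over all tested genes. Between the cell types the members split: Csf3 and Il34 were higher in CD26- NFs and Cx3cl1 was higher in CD26+ NFs, in either medium. In control medium 1 member was higher and 2 were lower in CD26+ NFs, against 25.0% and 25.4% of tested genes. In tumor CM 2 were higher and 2 lower, against 29.3% in each direction. Because so many genes differed between the cell types, the members' counts there stand on a high background.

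**Figure D1:**
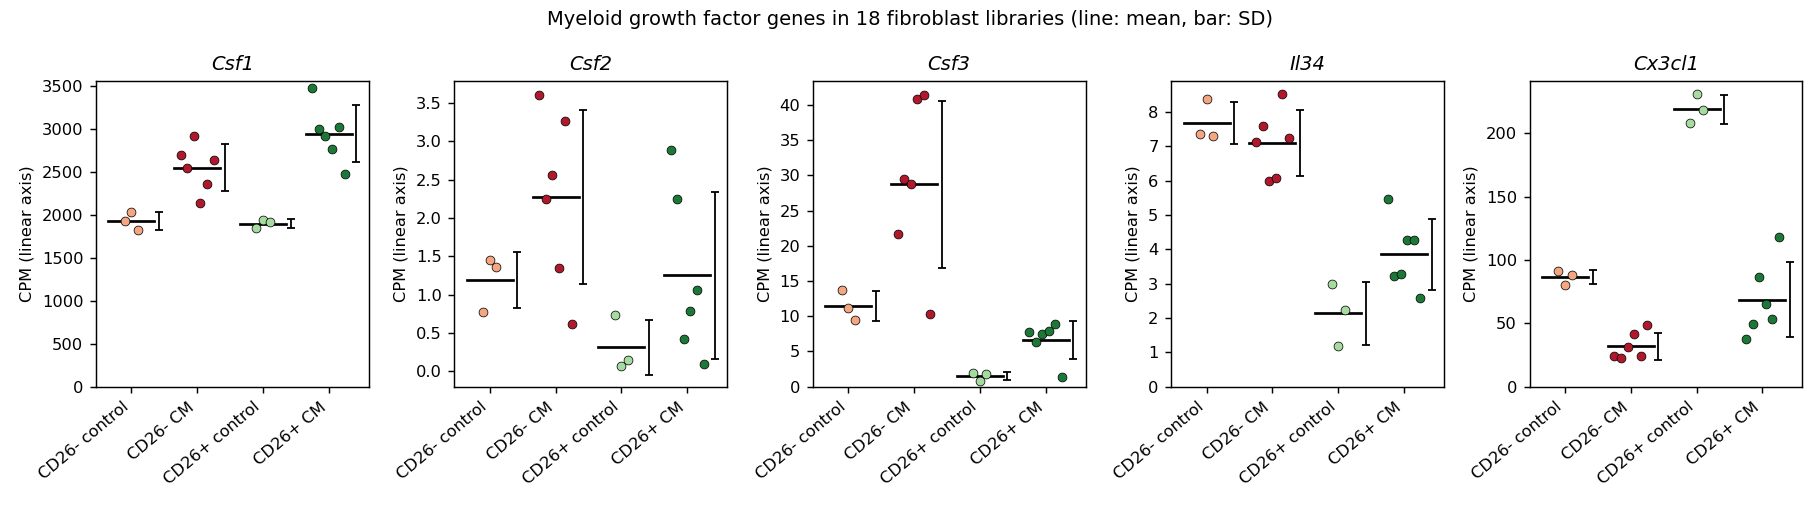
Abundance (CPM, linear axis) of Csf1, Csf2, Csf3, Il34 and Cx3cl1 in each of the 18 libraries by group; horizontal lines are means and the bars beside them are SDs. Csf1 lies above and Cx3cl1 below the controls of the cell type in all 12 CM libraries, and 1 CD26+ CM library of Csf3 lies at 1.34 CPM among the control values.

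**Figure D2:**
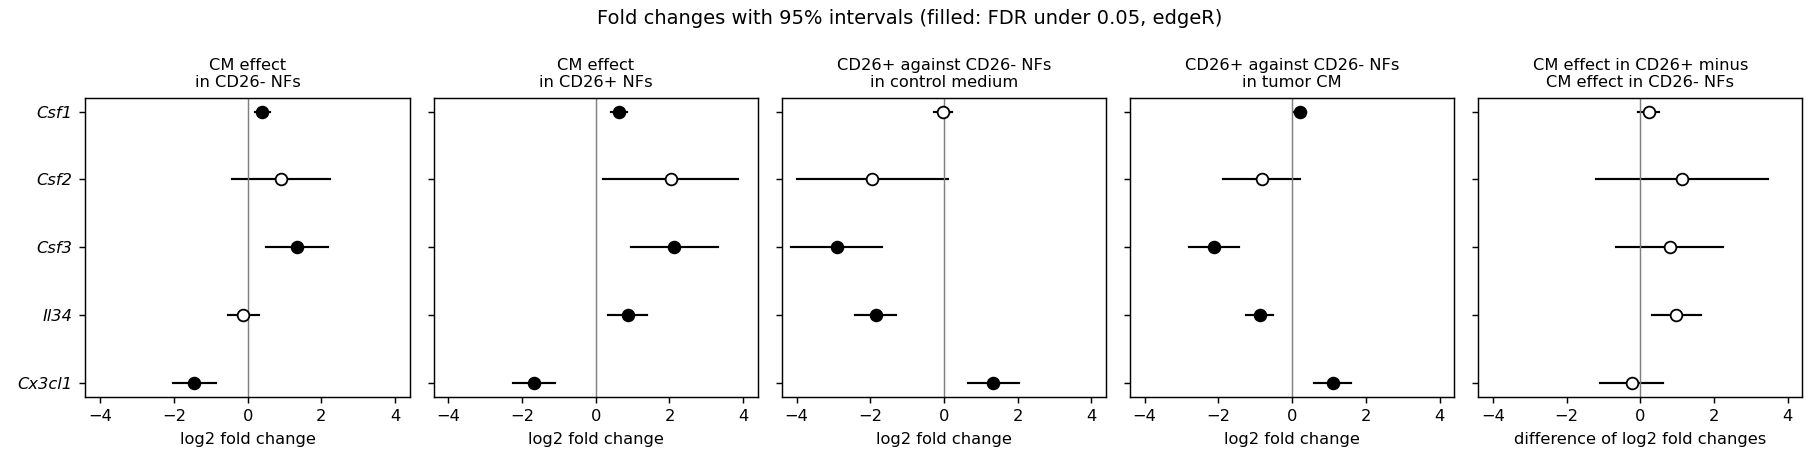
Log2 fold changes of the 5 genes in the 5 contrasts (points) with 95% intervals (lines); filled points have an FDR under 0.05 in edgeR. Intervals of Csf2 are the widest in each panel, and none of the differences in CM effect in the right panel is filled.

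Csf1 lies on chromosome 3 (GRCm38, chr3:107741048-107760469, minus strand, ENSMUSG00000014599) and was by far the most abundant member. In control medium it stood at 1924, 2038 and 1824 CPM in the CD26- libraries and at 1845, 1942 and 1912 CPM in the CD26+ libraries. In tumor CM the lowest, median and highest CD26- libraries were at 2141, 2594 and 2921 CPM and those of CD26+ NFs at 2475, 2963 and 3476 CPM. All CM libraries of either cell type therefore lay above all their controls, while the controls of the cell types overlapped. Group means were 1929 ± 108 (SD, n = 3), 2551 ± 273 (n = 6), 1900 ± 50.0 (n = 3) and 2945 ± 331 CPM (n = 6) in the order CD26- control, CD26- CM, CD26+ control and CD26+ CM. The CM effect was 0.40 on the log2 scale in CD26- NFs (standard error, SE, 0.098, FDR = 0.0111 in edgeR), a 1.32-fold rise, and 0.63 in CD26+ NFs (SE 0.099, FDR = 0.000172), a 1.55-fold rise. From lowest to highest, the neighboring control groups did not differ (log2 difference -0.02, 95% interval -0.26 to 0.21, FDR = 0.888, with the sign turning without CD26- control replicate 2 or CD26+ control replicate 10), and CM-treated CD26+ NFs stood above CM-treated CD26- NFs by 0.21 (SE 0.079, FDR = 0.032) with overlapping ranges. That last call was the weakest of the gene: it was lost on leaving out any of 7 libraries (CD26- CM replicates 5, 7 and 8 and CD26+ CM replicates 13, 14, 15 and 17, FDR = 0.05 to 0.0994) and at FDR = 0.0802 when only the 2 groups were fitted. The CM effect in CD26- NFs was lost without CD26- control replicate 3 (FDR = 0.0754).

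Per kilobase of union exon sequence, which allows genes to be set beside each other, the mean Csf1 level ran from 360 to 558 CPM per kb over the 4 groups. Cx3cl1 ran from 8.12 to 55.8, Csf3 from 1.07 to 20.3, Il34 from 1.09 to 3.92 and Csf2 from 0.396 to 2.84 CPM per kb. Their order differed between groups, since Csf3 (20.3) lay above Cx3cl1 (8.12) in CD26- CM libraries and was level with Il34 in CD26+ control libraries (1.07 and 1.09). Of the ligands of CSF1R, Csf1 was thus present at a much higher level than Il34 in every group.

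The promoter of Csf1 is shown because Csf1 rose in all CM libraries and because its RefSeq start coincides with the annotated gene start. It covers 250 bases before to 50 bases after that start (RefSeq, GRCm38.p6, chr3:107760420-107760719, minus strand), with motif matches in capitals.
Csf1: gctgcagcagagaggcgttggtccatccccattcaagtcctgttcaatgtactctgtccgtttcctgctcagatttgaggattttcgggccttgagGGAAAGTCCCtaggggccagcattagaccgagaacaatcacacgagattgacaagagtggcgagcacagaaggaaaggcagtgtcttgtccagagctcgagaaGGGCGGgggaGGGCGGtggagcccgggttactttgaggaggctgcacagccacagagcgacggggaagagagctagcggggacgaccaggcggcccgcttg
The capitals mark, in order, a match to the NF-kB motif that begins at position -154 on the opposite strand and a pair of GGGCGG (Sp1) boxes at -51 and -41. Searched on both strands, the NF-kB motif was held by 4.35% and GGGCGG by 35.9% of 27025 promoters of the same length. The AP-1 motif TGANTCA (7.93% of promoters), the C/EBP motif TTGCNNAA (10.8%) and TATAAA (14.2%) had no match in this window.

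Il34 (chr8:110741829-110805924, minus strand, ENSMUSG00000031750), the alternative ligand of CSF1R, behaved differently from Csf1. Its control values were 7.36, 8.37 and 7.31 CPM in CD26- libraries and 2.99, 1.19 and 2.23 CPM in CD26+ libraries. The lowest, median and highest values in tumor CM were 6.00, 7.19 and 8.54 CPM in CD26- NFs and 2.59, 3.78 and 5.46 CPM in CD26+ NFs. Every CD26- library lay above every CD26+ library. Means were 7.68 ± 0.60, 7.10 ± 0.96, 2.14 ± 0.91 and 3.85 ± 1.02 CPM (SD, n = 3, 6, 3 and 6), from counts of 16 to 110 per library. CD26+ NFs held less Il34 than CD26- NFs by 1.85 on the log2 scale in control medium (log2 fold change -1.85, SE 0.26, FDR = 1.7e-05) and by 0.87 in tumor CM (-0.87, SE 0.17, FDR = 0.000347). Tumor CM raised Il34 in CD26+ NFs by 0.86 (SE 0.25, FDR = 0.0148), to 1.82-fold, and the ranges overlapped. In CD26- NFs the log2 fold change was -0.11 (95% interval -0.54 to 0.31, FDR = 0.75), so that the groups at the top of the order, CM-treated and control CD26- NFs, did not differ beyond their spread.

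The call in CD26+ NFs was lost without CD26+ control replicate 11 (FDR = 0.121) and with only the 2 groups in the fit (FDR = 0.0672). The difference between the CM effects on Il34 was 0.98 (SE 0.32, 95% interval 0.30 to 1.65, FDR = 0.0669) and missed the threshold. With the CM line as a replicate block it was 0.97 (FDR = 0.0425). It also passed with DESeq2 (FDR = 0.0289), without CD26+ control replicate 10 (FDR = 0.0417) and without CD26+ CM replicate 18 (FDR = 0.0245). Antisense genes Gm15894 and Gm15895 overlap Il34 on the other strand and had at most 2 and 3 counts in a library, against 16 to 110 for Il34. The library kit keeps strand, but the strand setting of the counting is not given in the sources used here.

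Csf3 (chr11:98701263-98703629, plus strand, ENSMUSG00000038067) differed between the cell types and rose in tumor CM in both. CD26- control libraries stood at 13.8, 11.1 and 9.47 CPM and CD26+ control libraries at 1.94, 0.815 and 1.78 CPM. In tumor CM the lowest, median and highest values were 10.3, 29.1 and 41.4 CPM in CD26- NFs and 1.34, 7.62 and 8.87 CPM in CD26+ NFs. The cell types did not overlap in either medium, and in each cell type a single CM library fell into the control range. Means were 11.4 ± 2.16, 28.7 ± 11.8, 1.51 ± 0.61 and 6.60 ± 2.71 CPM (SD, n = 3, 6, 3 and 6). CD26+ NFs had 7.52-fold less Csf3 in control medium (log2 fold change -2.91, SE 0.59, FDR = 0.000483) and 4.34-fold less in tumor CM (-2.12, SE 0.32, FDR = 2.37e-05). Tumor CM raised Csf3 by 1.34 in CD26- NFs (SE 0.39, FDR = 0.0293) and by 2.13 in CD26+ NFs (SE 0.56, FDR = 0.00851). The rise in CD26+ NFs was the only CM effect among the members that passed the FDR and also the fold limit of the study's methods (a log2 fold change over 2), as 1.60% of tested genes did in that contrast.

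In the order of levels, CM-treated CD26+ NFs and control CD26- NFs were neighbors, with ranges apart but a log2 difference of -0.78 (95% interval -1.63 to 0.08, FDR = 0.112) in a contrast where 56.9% of tested genes were called. The CM effects on Csf3 in the cell types differed by 0.79 (95% interval -0.67 to 2.25, FDR = 0.52), an interval that spans 0. The rise in CD26- NFs was lost without CD26- control replicate 1, 2 or 3 or without CD26- CM replicate 8 (FDR = 0.0598 to 0.141), and the rise in CD26+ NFs without CD26+ control replicate 11 (FDR = 0.0562).

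Csf2 (chr11:54247271-54249667, minus strand, ENSMUSG00000018916) was near the limit of detection. The 3 control libraries held 8, 17 and 20 counts in CD26- NFs and 9, 1 and 2 counts in CD26+ NFs. In tumor CM, libraries held 7 to 45 counts in CD26- NFs and 1 to 38 in CD26+ NFs. In either cell type the CM range overlapped that of the controls, and in CPM, which takes library size into account, the CD26+ control libraries (0.0741 to 0.728) lay below the CD26- ones (0.774 to 1.45). Means were 1.19 ± 0.37, 2.27 ± 1.13, 0.317 ± 0.358 and 1.25 ± 1.09 CPM (SD, n = 3, 6, 3 and 6). None of the neighboring groups in the order CD26+ control, CD26- control, CD26+ CM and CD26- CM differed at an FDR under 0.05 (log2 differences of 1.95, 0.08 and 0.83 in size, FDR = 0.106, 0.922 and 0.162). The log2 fold change in tumor CM was 0.91 in CD26- NFs (95% interval -0.41 to 2.23, FDR = 0.352) and 2.03 in CD26+ NFs (0.20 to 3.86, FDR = 0.0894).

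Several alternatives carried Csf2 past the threshold. CM-treated CD26+ NFs were lower than CM-treated CD26- NFs with the CM line as a replicate block (log2 fold change -0.91, FDR = 0.0329) and without CD26+ CM replicate 13 (-1.26, FDR = 0.0428). The effect of tumor CM in CD26+ NFs passed with DESeq2 (2.01, FDR = 0.0422) and without CD26+ CM replicate 18 (2.26, FDR = 0.0319), and the comparison in control medium passed without CD26+ control replicate 10 (-3.33, FDR = 0.0478) and with only the 2 groups fitted (-1.97, FDR = 0.0105). The antisense gene Gm12223, on the other strand, had at most 2 counts.

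Cx3cl1 (chr8:94772009-94782427, plus strand, ENSMUSG00000031778) was the only member that fell in tumor CM and the only one with a higher level in CD26+ than in CD26- NFs in both media. Control libraries stood at 91.1, 80.6 and 88.3 CPM in CD26- NFs and at 208, 231 and 219 CPM in CD26+ NFs. The lowest, median and highest values in tumor CM were 22.4, 27.5 and 48.6 CPM in CD26- NFs and 37.7, 59.3 and 119 CPM in CD26+ NFs. All CM libraries lay below all controls of their own cell type, and the cell types overlapped in tumor CM but not in control medium. Means were 86.7 ± 5.42, 31.9 ± 10.8, 219 ± 11.4 and 68.5 ± 29.6 CPM (SD, n = 3, 6, 3 and 6). The fall was 2.72-fold in CD26- NFs (log2 fold change -1.45, SE 0.28, FDR = 0.00285) and 3.21-fold in CD26+ NFs (-1.68, SE 0.27, FDR = 0.000197), and the difference between these effects was -0.24 (95% interval -1.08 to 0.61, FDR = 0.765). CD26+ NFs were higher by 1.34 in control medium (SE 0.33, FDR = 0.00233) and by 1.10 in tumor CM (SE 0.24, FDR = 0.000756). The neighbors in the middle of the order, CM-treated CD26+ NFs and control CD26- NFs, did not differ beyond their spread (log2 difference -0.34, 95% interval -0.93 to 0.25, FDR = 0.314).

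The promoter of Cx3cl1, the member that fell in tumor CM in both cell types, is shown for comparison with that of Csf1 (RefSeq, GRCm38.p6, chr8:94771930-94772229, plus strand). Its RefSeq start lies 171 bases inside the GENCODE gene.
Cx3cl1: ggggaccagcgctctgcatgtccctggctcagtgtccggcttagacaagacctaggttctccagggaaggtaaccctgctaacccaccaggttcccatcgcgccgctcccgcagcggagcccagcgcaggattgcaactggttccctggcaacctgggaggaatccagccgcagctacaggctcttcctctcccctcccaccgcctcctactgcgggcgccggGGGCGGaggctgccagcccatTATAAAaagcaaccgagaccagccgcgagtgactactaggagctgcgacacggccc
The capitals mark GGGCGG at -27 and TATAAA at -6. The NF-kB, AP-1 and C/EBP motifs had no match in this window. The RefSeq table also holds Csf2, whose listed start lies 232 bases upstream of the GENCODE start, and does not list Csf3 and Il34. In the Csf2 window the C/EBP motif matched at -145 and the Sp1 motif at -77. The NF-kB, AP-1 and TATAAA motifs had no match there. For Csf2 and Cx3cl1 the motif positions depend on which start is used. The part of these motifs in the changes was not tested.

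For none of the 5 members did the difference between the CM effects pass an FDR of 0.05 in edgeR, against 4.53% of tested genes called with a larger log2 effect in CD26+ NFs and 3.01% with a smaller one. With an unadjusted threshold of 0.05 in edgeR there was 1 member, Il34, which was also the 1 member called by DESeq2. The contrasts share their control libraries, so the direction of a difference is tied to the position of those controls.

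The differences between CD26- and CD26+ NFs ran alongside the epithelial markers. With the mean log2 CPM of the 6 epithelial markers as a covariate, an alternative added after the data had been seen, none of the 5 members was called in either comparison of the cell types. The fitted difference then was -2.11 for Csf3, -1.01 for Il34 and 1.28 for Cx3cl1 in control medium (FDR = 0.168, 0.135 and 0.205), and -1.47, -0.19 and 1.05 in tumor CM (FDR = 0.142, 0.736 and 0.166). Csf1 in tumor CM went from 0.21 to 0.07 (FDR = 0.81), and the CM effect on Il34 in CD26- NFs, not called in either fit, from -0.11 to 0.13 (FDR = 0.769). Since most of the variance of that covariate lies between the cell types, the part of the epithelial markers in these differences and that of the cell type cannot be told apart. For the CM effects, 2 of 3 calls in CD26- NFs and 4 of 4 in CD26+ NFs were made with this covariate too, and Csf1 in CD26- NFs was not (FDR = 0.0659).

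Levels of 2 of 5 members differed among the 6 CM lines, tested over the 12 CM libraries with the cell type in the model, against 6.30% of 14289 genes tested. These were Csf3 (FDR = 0.0112 in edgeR) and Cx3cl1 (FDR = 0.0135). Csf2 had FDR = 0.101 and passed with DESeq2 (FDR = 0.00613) and without the filter on low counts (FDR = 9.27e-05), where Csf1 passed as well (FDR = 0.0465). In the reported edgeR test Csf1 and Il34 had FDR = 0.482 and 0.621. Each line has 1 library per cell type, so lines are replicated only across the cell types.

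**Figure D3:**
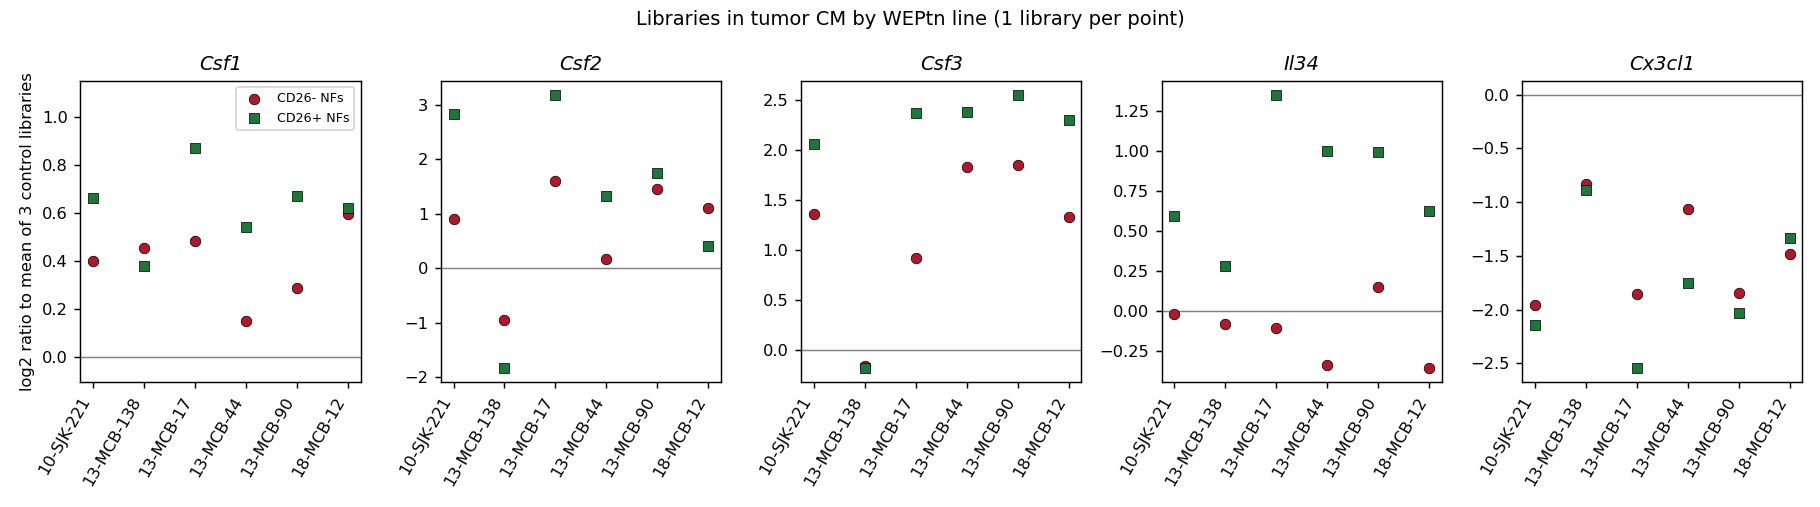
Log2 ratio of each CM library to the mean CPM of the 3 controls of its cell type, by WEPtn line (horizontal axis) for the 5 genes; circles are CD26- and squares CD26+ NFs, and each panel has its own vertical scale. In both cell types line 13-MCB-138 gave the lowest Csf2 and Csf3 values and the smallest fall of Cx3cl1.

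Line 13-MCB-138 stood apart from the other lines for Csf3. Over all tested genes its CD26+ library also differed from the other CD26+ CM libraries by a chi-square per degree of freedom of 22.2 to 59.5, against 4.64 to 28.0 among those. For its CD26- library the values were 9.58 to 30.3, against 3.34 to 22.4 among the other CD26- CM libraries, which overlapped more widely. With CM of this line, Csf3 was at 10.3 CPM in CD26- and 1.34 CPM in CD26+ NFs, a log2 ratio to the control mean of -0.16 and -0.17. With CM of the other 5 lines the ratio ran from 0.92 (13-MCB-17) to 1.85 (13-MCB-90) in CD26- NFs and from 2.06 (10-SJK-221) to 2.55 (13-MCB-90) in CD26+ NFs. Both cell types therefore showed a rise of Csf3 with 5 of 6 lines and none with 13-MCB-138.

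Cx3cl1 fell with every line, and least with 13-MCB-138. The log2 ratio to control was -0.83 in CD26- and -0.89 in CD26+ NFs with that line. The deepest falls were -1.95 with 10-SJK-221 in CD26- NFs and -2.54 with 13-MCB-17 in CD26+ NFs. Csf2 was likewise lowest with 13-MCB-138, at 7 and 1 counts, below the control mean in both cell types, and highest with 13-MCB-17, at 45 and 38 counts.

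Without both libraries of line 13-MCB-138, an alternative added after the data had been seen, the CM effect on Csf3 was 1.51 in CD26- and 2.34 in CD26+ NFs (FDR = 0.000194 and 1.92e-05), and that on Cx3cl1 was -1.60 and -1.91 (FDR = 0.000151 and 2.36e-06). Csf2 then passed the threshold in CD26+ NFs (2.26, FDR = 0.0191), as did its comparison between the cell types in control medium (-1.95, FDR = 0.0479) and the difference between the CM effects on Il34 (1.07, FDR = 0.0278). The line stood out by its own Csf2, Csf3 and Cx3cl1 values, so leaving it out had to enlarge the CM effects on these genes. Since all groups share the estimate of the spread, contrasts of the controls changed too. These calls are therefore no added support.

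Csf1 and Il34 did not pass the test of the lines, and in CD26- NFs line 13-MCB-138 ranked 4 of 6 from the lowest for both. Csf1 was above the control mean with 6 of 6 lines in both cell types, with log2 ratios from 0.15 (13-MCB-44) to 0.60 (18-MCB-12) in CD26- NFs and from 0.38 (13-MCB-138) to 0.87 (13-MCB-17) in CD26+ NFs. Il34 was above the control mean with 6 of 6 lines in CD26+ NFs, by 0.28 (13-MCB-138) to 1.35 (13-MCB-17), and with 1 of 6 lines in CD26- NFs. The line that gave the highest Il34 and Csf1 values in CD26+ NFs, 13-MCB-17, thus gave the highest Csf2 there too.

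The order of the lines by Csf2 was the reverse of their order by Cx3cl1 in CD26+ NFs. From 13-MCB-138 over 18-MCB-12, 13-MCB-44, 13-MCB-90 and 10-SJK-221 to 13-MCB-17, Csf2 counts went from 1 over 5, 10, 12 and 30 to 38, while Cx3cl1 went from 119 over 86.8, 64.9, 53.6 and 49.5 to 37.7 CPM. In CD26- NFs the same 2 lines, 13-MCB-138 and 13-MCB-44, had the lowest Csf2 (7 and 18 counts) and the highest Cx3cl1 (48.6 and 41.4 CPM). Over the 12 CM libraries, after subtraction of the cell type means, r between log2 CPM of Csf2 and Cx3cl1 was -0.95. That pair was picked from 10 pairs of members after their values were seen, the 2 genes share libraries, and Csf2 rests on few counts.

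**Figure D4:**
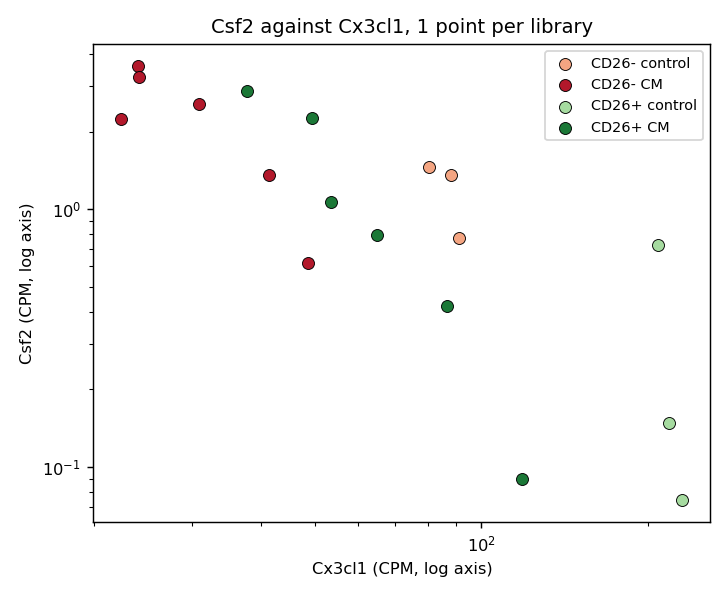
Csf2 against Cx3cl1 (CPM, both axes logarithmic), with 1 point for each of the 18 libraries colored by group. Within each CM group the libraries with the most Cx3cl1 have the least Csf2, and the CD26+ control libraries lie at the right, 2 of the 3 at the bottom.

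Genes related to the members were counted by list, to be read against the 7.88% of tested genes that tumor CM raised and 7.28% that it lowered in CD26- NFs, and 15.2% and 13.4% in CD26+ NFs. Where a list gene is said to hold in a number of alternatives, the epithelial covariate is not among them. Of the 8 receptor genes, 6 were abundant enough to be tested. Csf3r, the CSF3 receptor, had 0 counts in all 18 libraries, and Cx3cr1 had at most 1 count, which leaves both below a floor of 3 counts in each library. Csf1r was present at 21.6, 18.4, 17.5 and 21.7 CPM on average (CD26- control, CD26- CM, CD26+ control and CD26+ CM), and none of the CM effects on it passed (log2 fold change -0.23 and 0.31, FDR = 0.444 and 0.253). This stands beside Ptprc, Adgre1 and Itgam, markers of leukocytes and macrophages, at 0 to 3 counts, and beside the myeloid markers Cd68 and Lyz2, which were present in every library at 10 to 48 and 5 to 48 counts.

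**Figure D5:**
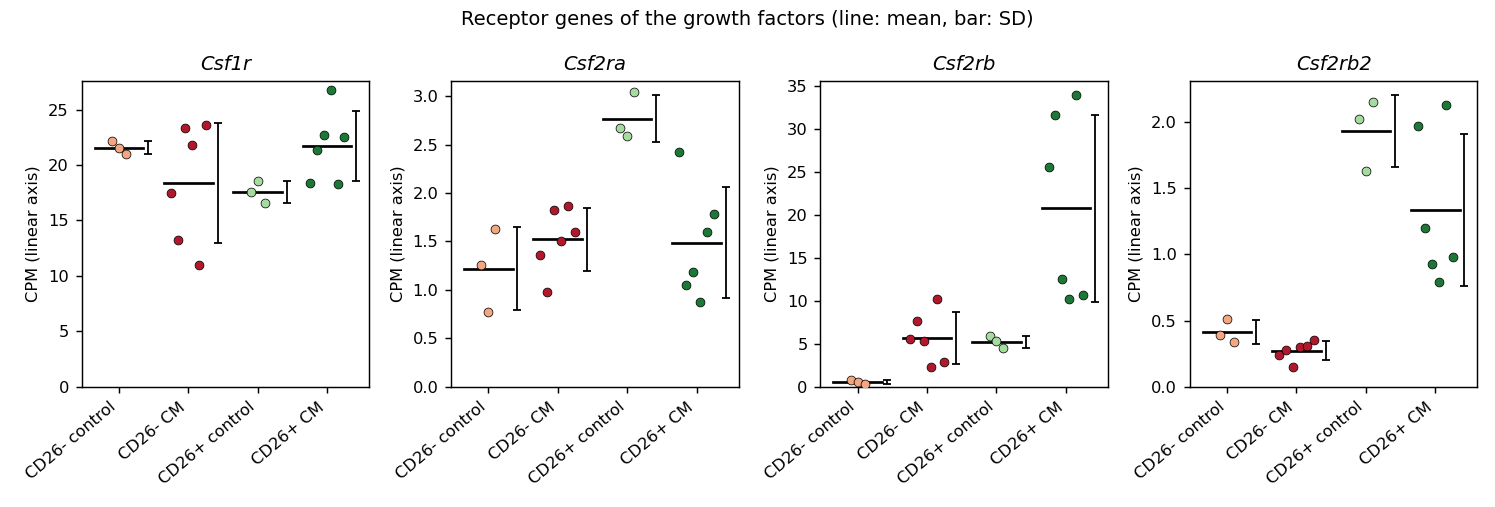
Abundance (CPM, linear axis) of the receptor genes Csf1r, Csf2ra, Csf2rb and Csf2rb2 in each library by group; lines are means and bars SDs. Csf2rb lies higher in every CM library than in the controls of its cell type.

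Csf2rb, the common beta chain of the CSF2 receptor, rose in both cell types. Control libraries stood at 0.774, 0.512 and 0.338 CPM in CD26- NFs and at 5.91, 5.26 and 4.45 CPM in CD26+ NFs. In tumor CM it was at 2.33 to 10.2 CPM in CD26- NFs and at 10.2 to 33.9 CPM in CD26+ NFs, in each case above the controls of the same cell type, while CD26- CM libraries overlapped the CD26+ controls. The log2 fold change was 3.43 (SE 0.74, FDR = 0.0056) and 2.00 (SE 0.46, FDR = 0.00373), and the difference between these was -1.44 (FDR = 0.372). CD26+ NFs were higher by 3.30 in control medium (FDR = 0.00243) and 1.86 in tumor CM (FDR = 0.000198).

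The alpha chain, Csf2ra, was lower in tumor CM in CD26+ NFs (log2 fold change -0.90, SE 0.27, FDR = 0.0173) and did not pass in CD26- NFs (0.29, FDR = 0.558). Csf2rb2, a paralog of Csf2rb with very similar sequence, was at 1.94 CPM in CD26+ control and 0.413 CPM in CD26- control libraries (log2 fold change 2.22, FDR = 9.91e-05). Reads of these paralogs may be split between them or lost, so their values are uncertain. Of the 6 tested receptor genes, tumor CM raised 1 and lowered 0 in CD26- NFs and raised 2 and lowered 1 in CD26+ NFs (median log2 fold changes -0.17 and -0.06). The 2 that rose there were Csf2rb and Sdc1, a proteoglycan that binds IL34 among other ligands (0.41, FDR = 0.0167). The calls of Csf2ra and Sdc1 held in 23 and 22 of 24 alternatives, with FDR up to 0.0715 and 0.0964.

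Of 16 other growth factors and cytokines, some of which act mainly outside blood cells, 12 could be tested. Tumor CM raised 4 and lowered 1 of them in CD26- NFs, and raised 5 and lowered 2 in CD26+ NFs, where 16.7% lowered is near the share of all genes. Their median log2 fold change was 0.46 and 0.55. Il6, an inflammatory cytokine, rose by 1.60 (FDR = 0.0032) and 2.99 on the log2 scale (FDR = 9.17e-06) in CD26- and CD26+ NFs, and Kitl, the ligand of the stem cell receptor KIT, by 1.26 (FDR = 0.00337) and 1.10 (FDR = 0.00306). Tslp, an epithelial and stromal cytokine, rose by 1.28 (FDR = 0.00193) and 0.98 (FDR = 0.0176). The factors that fell were named after their values were seen. Il11 fell by 1.19 (FDR = 0.0369) and 1.28 (FDR = 0.0144). Tnfsf11, the osteoclast factor RANKL, had -1.37 in CD26- NFs (FDR = 0.142) and fell by 1.78 in CD26+ NFs (FDR = 0.00753). The call of Il11 in CD26- NFs held in 17 of 24 alternatives (FDR up to 0.102) and that of Tslp in CD26+ NFs in 22 of 24 (up to 0.0768). Il3 and Epo had 0 counts in all libraries.

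The difference between the CM effects was called for 3 of the 12 tested factors, 2 upwards and 1 downwards, against 4.53% and 3.01% of all tested genes. Lif, a cytokine of the interleukin-6 family, had log2 fold changes of 0.36 in CD26- and 1.52 in CD26+ NFs (difference 1.16, SE 0.22, FDR = 0.00636). Vegfa, the main angiogenic factor, had 0.35 and 1.30 (difference 0.96, FDR = 0.00656), and Mif had 0.55 and 0.09 (difference -0.47, FDR = 0.0339). The difference for Mif held in 17 of 24 alternatives (FDR up to 0.0961) and those for Lif and Vegfa in all 24.

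Genes for the proteases that cut CX3CL1 and CSF1 from the membrane and their regulators had mostly small log2 fold changes, with the exception of Rhbdf2. Of 4 such genes, tumor CM lowered 1 and raised 0 in CD26- NFs and lowered 1 and raised 3 in CD26+ NFs (median log2 fold changes 0.14 and 0.29). Adam10 fell by 0.39 (FDR = 0.00218) and 0.22 (FDR = 0.0333), and Adam17 had log2 fold changes of 0.12 (FDR = 0.128) and 0.34 (FDR = 0.00017). Rhbdf2, a trafficking cofactor of ADAM17, had 0.36 (FDR = 0.089) and 1.45 (FDR = 7.58e-06), and these differed by 1.08 (SE 0.21, FDR = 0.00691). The fall of Adam10 in CD26+ NFs held in 16 of 24 alternatives (FDR up to 0.112).

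Of 7 regulators of messenger RNA decay, tumor CM raised 1 and lowered 0 in CD26- NFs and raised 3 and lowered 1 in CD26+ NFs (median log2 fold changes 0.12 and 0.03). Whether any of them acts on the AU-rich elements shown above was not tested. The gene with the smallest FDR was Zc3h12a, which encodes a nuclease that degrades cytokine messenger RNAs. It rose by 1.31 (SE 0.13, FDR = 3.16e-05) and 1.45 (SE 0.13, FDR = 6.15e-07). Zfp36l2 had log2 fold changes of 0.30 (FDR = 0.201) and 0.63 (FDR = 0.00654), and Khsrp had 0.12 (FDR = 0.174) and -0.21 (FDR = 0.0122). Both calls in CD26+ NFs held in 24 of 24 alternatives. Zfp36, the classical AU-rich element binding decay factor, had -0.10 (FDR = 0.516) and 0.27 (FDR = 0.036), and its call in CD26+ NFs held in 13 of 24 alternatives (FDR up to 0.235).

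Of 14 transcription factors known to act on Csf2 or Csf3, tumor CM raised 4 and lowered 2 in CD26- NFs and raised 5 and lowered 2 in CD26+ NFs (median log2 fold changes 0.11 and 0.19). The 14.3% lowered in CD26+ NFs is near the share of all genes. Nfkb1 rose by 0.20 (FDR = 0.0494) and 1.05 (FDR = 3.44e-08), and Relb had 0.28 (FDR = 0.0862) and 1.18 (FDR = 1.25e-06), with differences of 0.85 (FDR = 0.000459) and 0.89 (FDR = 0.00402). Cebpd had the opposite pattern, with 1.51 (FDR = 0.000362) in CD26- NFs and 0.17 (FDR = 0.488) in CD26+ NFs, a difference of -1.33 (FDR = 0.00849). The rise of Nfkb1 in CD26- NFs held in 10 of 24 alternatives (FDR up to 0.175). The factors that fell, named after their values were seen, were Runx1 and Nfatc1, in both cell types. Runx1 had -0.45 (FDR = 0.0104) and -0.31 (FDR = 0.0409), and Nfatc1 had -0.71 (FDR = 0.027) and -0.64 (FDR = 0.0271). Their calls held in 18 to 22 of 24 alternatives, with FDR up to 0.115. The difference between the CM effects, called for 4.53% of all tested genes upwards and 3.01% downwards, was called for 5 of these 14 genes, 4 with a larger log2 effect in CD26+ NFs and 1 with a smaller one.

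The genes whose log2 CPM ran most like that of a member over the 18 libraries were sought among those whose mean reached 5 CPM in any group. For Csf1 these were H6pd (r = 0.98), Lmcd1 (r = 0.973) and Celf2 (r = 0.971), and for Il34 Ptpre (r = 0.969), Crip2 (r = 0.964) and Lrrc8c (r = 0.962). For Csf3 they were Agps (r = 0.964), the cytokine gene Il1a (r = 0.955) and Clic1 (r = 0.955), and for Csf2 Fam83f (r = 0.923), Hmga2 (r = 0.911) and Cisd3 (r = 0.908). Ptn (r = 0.981), Megf9 (r = 0.98) and Slc6a6 (r = 0.98) were most like Cx3cl1. These values were ranked over 11124 or 11125 genes in libraries that share groups and depth, and they describe likeness of pattern only.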

How the data were processed

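RNA of 18 mouse fibroblast libraries was analysed from a table of raw gene counts that the authors deposited, 1 column per library and without normalization. Per the submitters' processing notes, HISAT2 2.1.0, HTSeq and the build GRCm38 were used. Sequencing platforms are named for the study but not per library, and the strand setting of the counting is not given in the sources used here. Of the rows, 1 names no gene and holds 0 counts. Total counts ran from 9725723 to 14585349. Gene intervals of the members equal those of GENCODE vM21.

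Genes were kept with filterByExpr by group (14273 genes) and scaled by TMM, and groups were compared by quasi-likelihood testing (edgeR 4.0.16 under R 4.3.3) in 1 model with a mean for each of 4 groups. The study used DESeq2 with an added log2 fold limit of 2, and DESeq2 1.42.0 was run as an alternative. SE are the log2 fold change divided by the root of F. CM lines were tested in the 12 CM libraries with the cell type as a term. Libraries given CM of the same line deviated together from their group means (r from 0.247 to 0.406 in all 6 pairs), so the line served as a replicate block in alternatives. No 2 libraries of a group agreed within sampling noise (chi-square of counts over degrees of freedom at least 3.22), so none was treated as a repeat deposit.

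The members, gene lists and marker lists were chosen with earlier results of these data known. All members are named, and up to 4 genes of each list with the smallest FDR in a contrast. In the growth factor and transcription factor lists, genes that fell were added after their values were seen. Fits were tested on simulated counts. Other alternatives were RLE and upper-quartile scaling, no filter, a prior count of 2, only the 2 groups compared, and leaving out each library.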

Additional observations from a re-analysis of the deposited data

Results flagged for a closer look

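Each member was checked in the 2 CM groups of 6 libraries for a library far from the others on the log2 CPM scale, 10 checks in all. Chance alone flags about 1 in 20 such groups. The only library that stood out was CD26+ CM replicate 18, which received CM of line 13-MCB-138: its Csf3 level of 1.34 CPM lay below the next lowest library, 6.30 CPM, by 0.819 of the whole range of the group (limit 0.625). The CD26- library with CM of the same line was also the lowest of its group for Csf3, at 10.3 CPM, without passing the limit. Without CD26+ CM replicate 18, Csf3 was still called in CD26+ NFs. The cause of the low value was not tested.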

How the results depend on the processing

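The log2 fold changes of single members were recomputed in 655 alternatives: 615 kept their direction and their side of the FDR threshold of 0.05, 24 kept the direction and lost the call, 13 kept the direction and gained it, and 3 changed sign, none of them called. Those were Csf1 between the cell types in control medium, which ran from -0.056 to 0.023 over the libraries left out and was above 0 on leaving out CD26- control replicate 2 (0.023) or CD26+ control replicate 10 (0.00059), and the CM effect on Il34 in CD26- NFs, at 0.13 with the epithelial covariate. Of 75 recomputed line tests, 72 kept their side of the threshold and 3 gained a call. With the fold limit of the study added to the FDR, the number of members called was 1 in control medium and 1 in tumor CM between the cell types, 0 for the CM effect in CD26- NFs and 1 in CD26+ NFs. With the epithelial marker mean added to the model, an alternative picked once the data had been seen, it was 0 between the cell types in either medium. The difference in CM effect was called for 1 member with DESeq2, 1 with the CM line as a replicate block and 1 without both libraries of line 13-MCB-138, the last also picked at that stage. The line test called 4 members with no filter on low counts. Leaving out each of the 18 libraries in turn gave 3 to 4 members called between the cell types in control medium and 3 to 4 in tumor CM, 1 to 3 for the CM effect in CD26- NFs, 2 to 5 in CD26+ NFs and 0 to 1 for the difference, and leaving out each CM library gave 2 in the line test. The replicate block was fitted to 2 contrasts, the difference between CM effects and that between CM-treated cell types. In these contrasts it changed the calls of Csf2 and Il34 given above and of no other member, and it raised the calls over all genes for the difference in CM effect to 2516. Where calls changed, the cause was not tested. Csf2 is limited by depth, with 1 to 45 counts in a library, and control groups of 3 libraries limit every CM effect.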
